A study of Mus musculus with 21 samples.

Results

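Matricellular proteins are secreted into the extracellular matrix, where they act mainly as signals to cells and modulators of growth factors and adhesion rather than as load-bearing fibres. They bind integrins and other surface receptors as well as collagen and fibronectin, and many of them are low in resting adult tissue and high in wounds, fibrosis and the stroma of pancreatic cancer. In pancreatic tumours most of this matrix comes from fibroblasts, but the carcinoma cells themselves also make part of it. The members described here are 10 genes of 34478 in the deposited table, found by symbol: Spp1 (osteopontin), Postn (periostin), Thbs1 and Thbs2 (thrombospondins), Tnc (tenascin C), Sparc and its relative Sparcl1, Fn1 (fibronectin), Tgfbi and Fbn1 (fibrillin). Fn1 and Fbn1 are structural glycoproteins that other members bind, rather than matricellular proteins in the strict sense.

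RNA was sequenced from 6 primary murine pancreatic ductal adenocarcinoma lines, numbered #3, #4, #6, #7, #9 and #10 and grown in DMEM with serum. All came from pancreatic tumours of mice carrying Ptf1a wt/Cre, in which the recombinase is driven by the Ptf1a locus in pancreatic cells, together with Trp53 loxP/loxP. Parental cells had never seen a MEK inhibitor (6 samples), and resistant cells had been adapted to rising doses of trametinib, an inhibitor of MEK, and were kept in it (6 samples). P5 cells (3 samples, lines #3, #7 and #9) and P12 cells (6 samples) were resistant cells after passaging without the drug. The title and group label of P5 in lines #7 and #9 give 5 drug-free passages and their description gives 12, and these samples are called P5 below. A line contributes a single library to a state, which makes the lines the replicates. The paper describes resistant cells, examined in lines #3 and #9, as the outgrowth of a single clone, so a resistant sample may stand for 1 clone of its line.

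Levels are given as normalized counts, the counts of the authors after normalization with DESeq2. From the spacing of low values, 1 read was estimated at 0.769 to 1.36 normalized counts, which puts the depth of a sample near 24.1 to 42.7 M reads. Not all low values lay on multiples of 1 read, so these figures are approximate. On this scale 3 reads, taken as the lowest level that can be told from none, were 2.31 to 4.07 normalized counts. This limit covers counting error only. Differences are log2 values of normalized count + 1, tested with limma in 1 fit of all 21 samples over the 19300 genes that reached 10 normalized counts in 3 or more samples, and a gene was called at an adjusted p below 0.01 and a log2 difference above 1 or below -1. Of the 10 members, 9 passed this filter and Sparcl1 did not. Because the same 6 lines recur in each state, values from a second fit with the line as a block are given where they change a call of a member, of a gene of the lists or of a marker read below.

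As a check of the state labels, 7 genes whose transcription follows ERK signalling were read in each state. Etv4, an ETS factor induced by ERK, had between 1931 and 6573 normalized counts in parental cells (median 2913), between 0 and 4.58 in resistant cells (median 1.45) and between 4827 and 8573 in P12 cells (median 5613). Its P5 values were 5618 in line #3, 6127 in line #7 and 7834 in line #9. Resistant cells thus lay below every other sample for Etv4, and all 7 genes (Dusp4, Dusp6, Spry2, Spry4, Etv4, Etv5 and Phlda1) were called lower in resistant than in parental cells and higher in P12 than in resistant cells. Of all tested genes, 2.73% and 1.28% were called in these directions. Dusp6, a phosphatase of ERK, had 681 normalized counts in resistant cells of line #7 and between 4.49 and 60.7 in the other 5 resistant lines, so that line #7 had the highest remaining level.

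Spp1 encodes osteopontin, a secreted phosphoprotein that binds integrins and CD44. It lies on chromosome 5 (chr5:104435118-104441050, plus strand). Parental cells had between 62652 and 158447 normalized counts of Spp1 (median 96741), and resistant cells between 148 and 3392 (median 1077). In P12 cells the lowest value was 18469, the median 80909 and the highest 351081, and in P5 cells the values were 13102 in line #3, 121336 in line #9 and 435051 in line #7. Every resistant sample was below every parental, P5 and P12 sample, whereas parental and P12 cells overlapped. Line #7 had the highest Spp1 of its state in all 4 states.

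Sparc encodes a calcium- and collagen-binding glycoprotein that modulates cell adhesion and collagen assembly (chr11:55394500-55423183, minus strand). Parental cells had between 324 and 19716 normalized counts of Sparc (median 5845), resistant cells between 10522 and 289234 (median 201034) and P12 cells between 1268 and 62164 (median 27897). The P5 values were 29709 in line #3, 1214 in line #7 and 34025 in line #9. Parental, P5 and P12 cells overlapped across lines. Resistant cells overlapped with them only through line #7, which was low throughout, with 324 normalized counts in parental and 10522 in resistant cells. In the other 5 lines resistant cells had at least 99187, above every parental, P5 and P12 sample of any line.

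Tnc encodes tenascin C, a large hexameric glycoprotein that weakens cell attachment to fibronectin (chr4:63959785-64047015, minus strand). It had between 1.58 and 1790 normalized counts in parental cells (median 339), between 28.2 and 72478 in resistant cells (median 15207) and between 5.25 and 25873 in P12 cells (median 2742). P5 cells had 6746 in line #3, 54.1 in line #7 and 2127 in line #9. The spread between lines was wider than that between states: line #7 had the lowest Tnc in each state, line #10 the next lowest in parental, resistant and P12 cells, and lines #3, #4 and #6 together with line #9 made up the upper range. Of the sum of squares of Tnc over the 18 parental, resistant and P12 samples, 77.6% lay between lines, 20.6% between states and 1.74% in the rest, which means that the lines kept nearly the same order in each state.

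Postn encodes periostin, which binds integrins and collagen and is typical of activated fibroblasts (chr3:54361109-54391037, plus strand). Parental cells had between 0 and 38.2 normalized counts of Postn (median 2.57), with 3 of 6 samples at or under the level of 3 reads. Resistant cells had between 2.80 and 5937 (median 491), and P12 cells between 0 and 127 (median 11.9). P5 cells had 36.9 in line #3, 0 in line #7 and 21.7 in line #9. Resistant cells of lines #3, #6 and #9, with 5937, 901 and 3554 normalized counts, were above every sample of the other states, while resistant lines #4, #7 and #10 lay within the range of P12 cells.

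**Figure D1:**
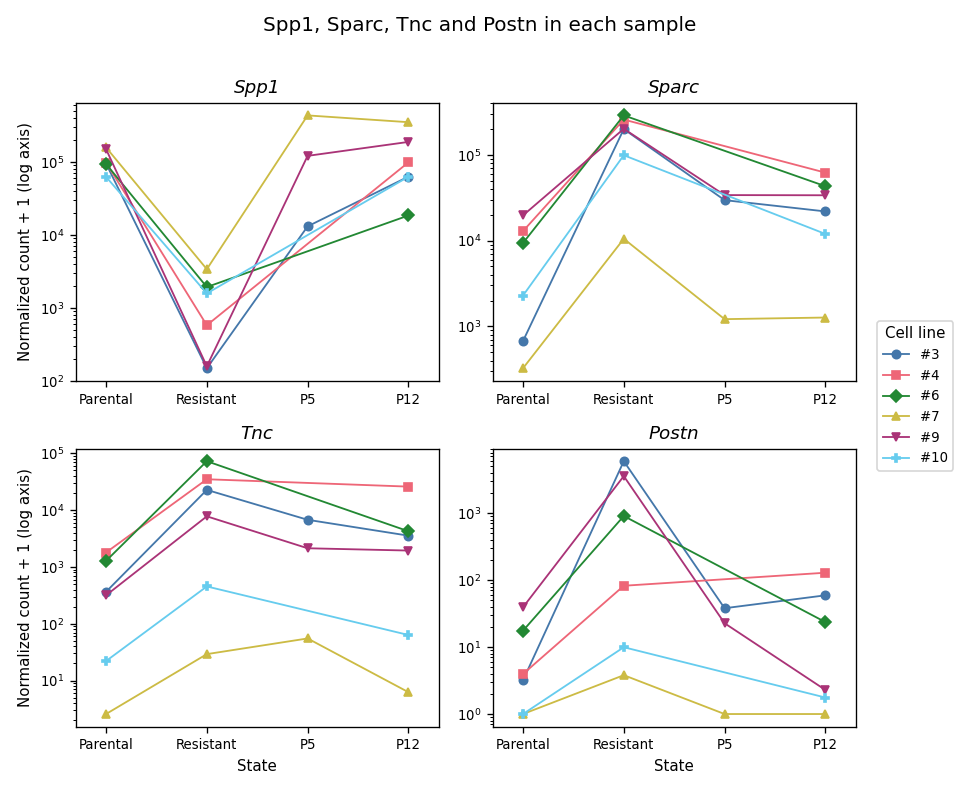
Normalized counts plus 1 (log axis) of Spp1, Sparc, Tnc and Postn in each sample by state, with 1 colour and marker for each cell line and a line joining its states; P5 was sequenced in 3 lines. Spp1 is lowest in resistant cells of all 6 lines, with a median of 1077 normalized counts, and Sparc and Tnc are higher in resistant than in parental cells of all 6 lines.

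Between resistant and parental cells, Spp1 fell and Sparc rose. These were the 2 calls among the 9 tested members, 1 of them higher and 1 lower, while 2.57% of all tested genes were called higher and 2.73% lower. Spp1 fell by 7.18 on the log2 scale (SE 0.863, n = 6 lines, adjusted p = 3.53e-05 in limma) and was lower in 6 of 6 lines, with differences within a line from -9.89 in line #9 to -5.31 in line #10. Sparc was higher by a log2 difference of 5.21 (SE 1.1796, n = 6 lines, adjusted p = 0.00596 in limma) in 6 of 6 lines, from 3.36 in line #9 to 8.21 in line #3. The call of Sparc was lost when line #3 (log2 difference 4.62, adjusted p = 0.0467), #4 (5.39, adjusted p = 0.0184), #6 (5.27, adjusted p = 0.0252) or #10 (5.17, adjusted p = 0.0291) was left out, and over all alternatives in limma its adjusted p lay between 1.61e-06 and 0.0467.

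With the line as a block, 3 of 9 tested members were called higher and 1 lower between resistant and parental cells, beside 4.85% and 5.60% of all tested genes. Tnc, not called without the block (adjusted p = 0.158 in limma), had a log2 difference of 4.76 (SE 0.437, adjusted p = 1.10e-05 in limma with the block) and was higher in 6 of 6 lines, from 3.50 in line #7 to 5.96 in line #3. Postn, at an adjusted p of 0.0428 without the block in limma, had a log2 difference of 5.44 (SE 1.19, adjusted p = 0.00411 with the block). It was higher in 5 lines, and in line #7 both values (0 and 2.80 normalized counts) were at or under the level of 3 reads. The 4 calls made with the block differed in how far they rested on single lines. Those of Spp1, Sparc and Tnc held when any of the 6 lines was left out, whereas that of Postn was lost without line #3 (adjusted p = 0.0298 in limma), #6 (adjusted p = 0.0192) or #10 (adjusted p = 0.01001, just above the threshold). Over all alternatives the adjusted p in limma ranged from 1.53e-05 to 0.000754 for Spp1, from 1.10e-05 to 0.306 for Tnc and from 0.00411 to 0.169 for Postn.

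Fn1 encodes fibronectin, the ligand of several integrins on which other matrix proteins assemble (chr1:71585520-71653200, minus strand). Its level lay between 15959 and 140109 normalized counts in parental cells (median 46729), between 27894 and 281257 in resistant cells (median 127585) and between 21758 and 329387 in P12 cells (median 139165), and the 3 ranges overlapped. P5 cells had 102775 in line #3, 37317 in line #7 and 183688 in line #9. Resistant cells had more Fn1 than parental cells in 6 of 6 lines, by log2 differences of 0.03 in line #7 to 2.41 in line #10, but the difference was not called (log2 1.26, SE 0.724, adjusted p = 0.261 in limma). After drug withdrawal the lines diverged: P12 cells of line #10 had 21758 normalized counts of Fn1, near its parental 21544, and those of line #4 had 329387 against 86216 in parental cells.

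Fbn1 encodes fibrillin, the backbone of microfibrils that also hold latent TGF-beta complexes (chr2:125300594-125507993, minus strand). Parental cells had between 10.8 and 5531 normalized counts of Fbn1 (median 193), resistant cells between 57.0 and 18732 (median 2471) and P12 cells between 2.55 and 6472 (median 1666). P5 cells had 5479 in line #3, 2.10 in line #7 and 2098 in line #9. The ranges overlapped, and line #9 went the other way from the rest, with 5531 normalized counts in parental and 322 in resistant cells, whereas the other 5 lines were higher in resistant cells by log2 differences of 0.36 to 8.98. The difference between resistant and parental cells was not called (log2 3.29, SE 2.29, adjusted p = 0.367 in limma). In line #10, Fbn1 went from 10.8 in parental to 2437 in resistant cells and to 3.38 in P12 cells.

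Thbs1 and Thbs2 encode thrombospondins, trimeric glycoproteins that bind CD36 and CD47 and inhibit the growth of vessels. Thbs1 (chr2:118111876-118127133, plus strand) had a median of 6867 normalized counts in parental cells (range 3680 to 25599), 9790 in resistant cells (range 1313 to 28552) and 16228 in P12 cells (range 1050 to 39768), and P12 and parental cells overlapped. Its P5 values were 5965 in line #3, 2990 in line #7 and 23565 in line #9. Its lines split evenly, with 3 of 6 higher and 3 of 6 lower in resistant than in parental cells, and only 1.41% of its sum of squares lay between states. Thbs2 (chr17:14665500-14694235, minus strand) had a median of 17.8 in parental cells (range 9.08 to 3369), 3.83 in resistant cells (range 0 to 282) and 588 in P12 cells (range 9.99 to 5152). Its P5 values were 819 in line #3, 14.5 in line #7 and 62.8 in line #9. Parental line #9 held 3369 normalized counts of Thbs2, while the other 5 parental lines held at most 49.0, and in resistant cells 3 of 6 samples were at or under the level of 3 reads.

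Tgfbi encodes a secreted adhesion protein related to periostin and induced by TGF-beta (chr13:56609523-56639562, plus strand). It was low in parental cells, with a median of 17.9 normalized counts (range 12.0 to 465), and in resistant cells, with a median of 20.7 (range 4.86 to 204). P12 cells had a median of 145 and ranged from 19.1 to 6404, and P5 cells had 7499 in line #3, 37.1 in line #7 and 169 in line #9. Line #3 was far above the rest once the drug was withdrawn, and line #9 was the highest in parental and in resistant cells. Sparcl1, a homologue of Sparc (chr5:104079111-104113733, minus strand), had at most 0.718 normalized counts in parental cells and 0 in all 6 resistant samples. Its highest values were 16.1 and 8.69 in P12 and P5 cells of line #3, and it passed the level of 3 reads in 2 of 6 P12 samples and 1 of 3 P5 samples.

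**Figure D2:**
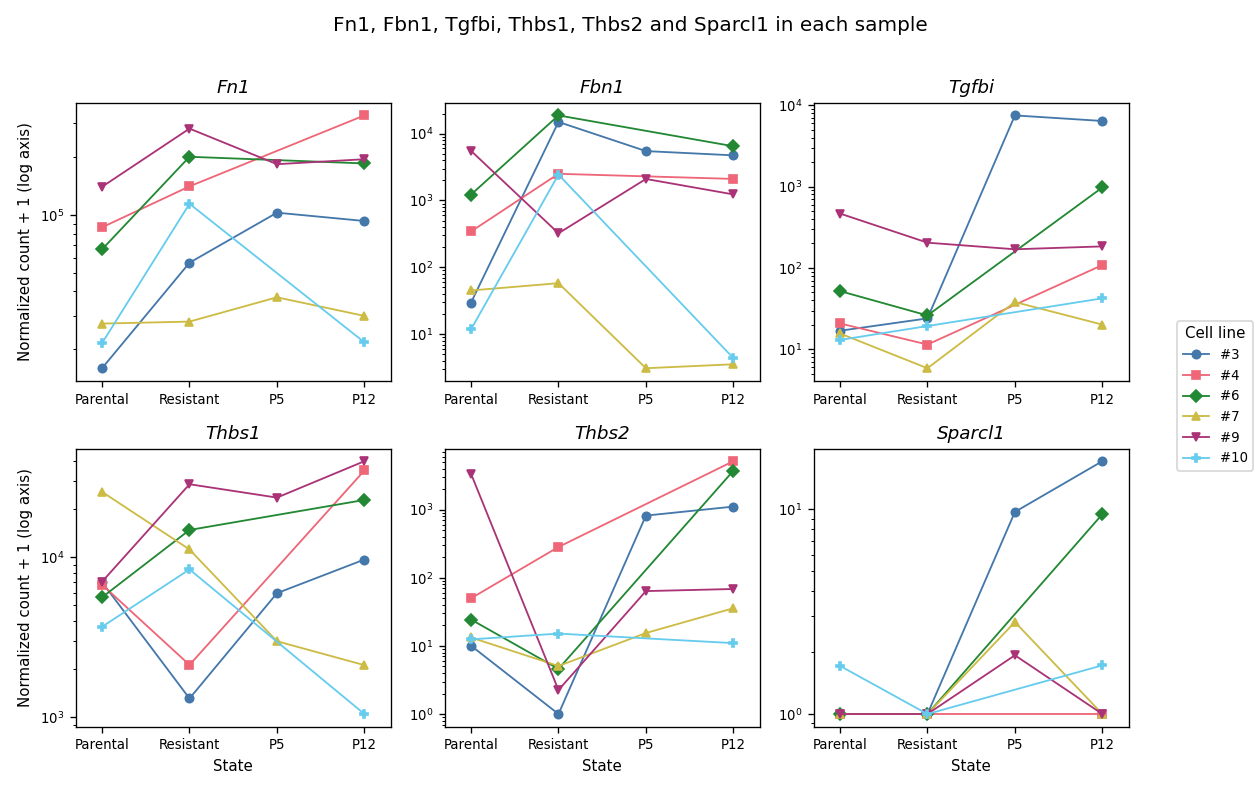
Normalized counts plus 1 (log axis) of Fn1, Fbn1, Tgfbi, Thbs1, Thbs2 and Sparcl1 in each sample by state, with 1 colour and marker for each cell line and a line joining its states; P5 was sequenced in 3 lines. Thbs2 and Tgfbi reach their highest values after drug withdrawal, 5152 normalized counts in P12 cells of line #4 and 7499 in P5 cells of line #3.

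When resistant cells were grown without trametinib, Spp1 rose in all 6 lines and Sparc and Tnc were lower again in all 6. The P12 level of Spp1 lay within the parental range in lines #3, #4 and #10, below it in line #6 (18469) and above it in lines #7 (351081) and #9 (188370). Between P12 and resistant cells 1 of 9 tested members was called higher and 0 lower, where 1.28% of all tested genes were called higher and 0.850% lower. Spp1 was higher in P12 cells by a log2 difference of 6.94 (SE 0.863, n = 6 lines, adjusted p = 8.35e-05 in limma) in 6 of 6 lines, from 3.26 in line #6 to 10.22 in line #9. At an unadjusted p below 0.05 in limma, 3 members were higher and 2 lower, where 19.8% of all tested genes were past it in either direction. With the line as a block, 1 member was called higher and 2 lower, beside 2.52% and 2.00% of all tested genes. Sparc fell by 2.78 on the log2 scale (SE 0.459, adjusted p = 0.00134 with the block and 0.189 without it in limma) and Tnc by 2.38 (SE 0.437, adjusted p = 0.00275 with the block and 0.616 without it in limma), each in 6 of 6 lines. With the block, the call of Sparc was lost without line #7 (adjusted p = 0.0108 in limma) and that of Tnc without line #3 (adjusted p = 0.0171), #6 (adjusted p = 0.0164) or #10 (adjusted p = 0.0141). Over all alternatives the adjusted p in limma ranged from 0.000227 to 0.357 for Sparc and from 0.00275 to 0.776 for Tnc.

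P12 cells were compared with parental cells of the same lines to see what remained after 12 passages. No member was called in this comparison with limma (0 of 9), where 0.114% of all tested genes were called in either direction, and 0 members passed an unadjusted p below 0.05, which 15.3% of all tested genes did. With the line as a block the count was again 0 of 9, beside 0.523% of all tested genes, and 4 members were higher at an unadjusted p below 0.05 in limma, which 23.8% of all tested genes passed in either direction. Sparc was higher in P12 than in parental cells of 6 of 6 lines (log2 2.44, SE 0.459, adjusted p = 0.0120 in limma with the block), and so was Tnc (log2 2.38, SE 0.437, adjusted p = 0.0107 in limma with the block), both just above the threshold. Without the block the adjusted p in limma was 0.331 for Sparc and 0.635 for Tnc, and over all alternatives it ranged from 0.0120 to 0.660 for Sparc and from 0.0107 to 0.801 for Tnc. Fn1 was also higher in 6 of 6 lines, by log2 differences of 0.01 in line #10 to 2.54 in line #3.

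The part of the resistant change that P12 cells kept can be written, for each line, as the log2 difference of P12 from parental cells in percent of that of resistant from parental cells. For Sparc it was 44.1% ± 12.8 (SD, n = 6), from 23.2% in line #9 to 61.2% in line #3, and for Tnc 50.5% ± 22.3 (SD, n = 6), from 29.7% in line #6 to 90.0% in line #4. For Spp1 it was 4.02% ± 20.7 (SD, n = 6), from -20.7% in line #7, where P12 cells had more Spp1 than parental cells, to 41.9% in line #6. Postn varied most, at 20.5% ± 58.0 (SD, n = 6), from -63.0% in line #9 to 115% in line #4. However, P12 cells of lines #7, #9 and #10 (0, 1.29 and 0.763 normalized counts) and parental cells of lines #3, #7 and #10 were at or under the level of 3 reads. These percentages of Postn are therefore uncertain. Spp1 kept a smaller part than Sparc in 6 of 6 lines, though in line #6 the values were close (41.9% and 44.5%). Resistant and parental cells enter all 4 percentages, so these are descriptions and were not tested against each other.

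**Figure D3:**
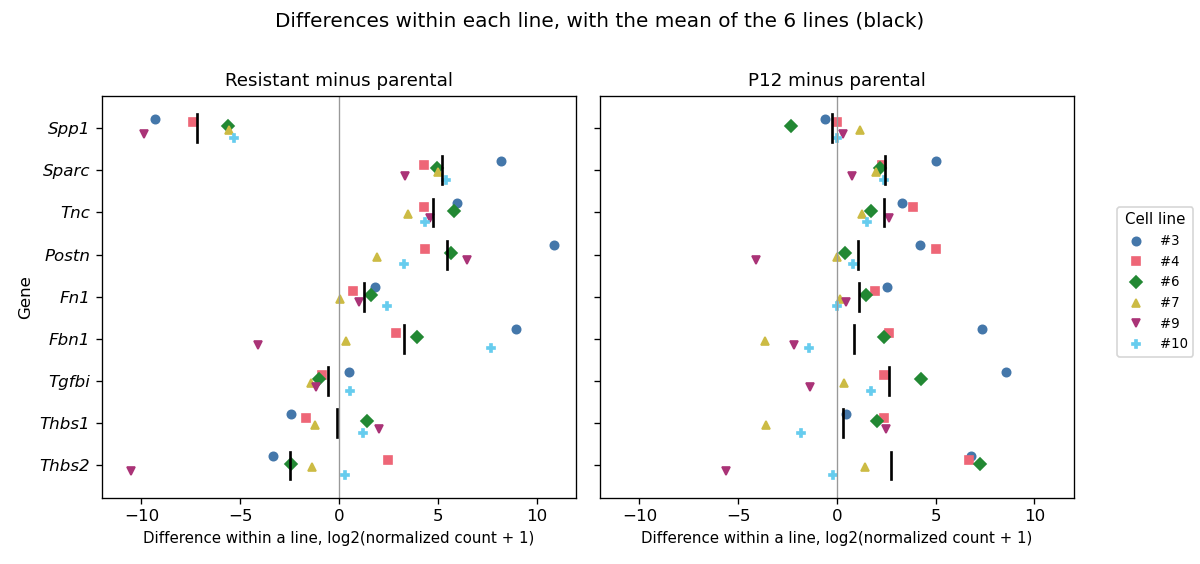
Log2 differences of normalized count plus 1 within each line (x axis) for 9 members (y axis), resistant minus parental on the left and P12 minus parental on the right, with 1 marker for each line and a black bar at the mean of 6 lines. Spp1 lies between -9.89 and -5.31 on the left and between -2.35 and 1.15 on the right, while Sparc and Tnc stay above 0 in both panels.

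P5 cells were sequenced in lines #3, #7 and #9, and their comparison with resistant cells shares its 6 resistant samples with that of P12 cells. Between P5 and resistant cells 1 of 9 tested members, Spp1, was called higher, where 0.290% of all tested genes were called higher, and with the line as a block it was again 1 of 9, beside 0.435% of all tested genes. Spp1 had a log2 difference of 6.94 (SE 1.06, adjusted p = 0.00171 in limma) and was higher in 3 of 3 lines, by 6.46 in line #3, 7.00 in line #7 and 9.58 in line #9. This call was lost without line #4 (adjusted p = 0.0112 in limma), without line #9 (adjusted p = 0.0223), with only the 2 compared states in the fit (adjusted p = 0.0809) and without P5 of lines #7 and #9, whose labels disagree (log2 4.18, adjusted p = 0.282), and over all alternatives the adjusted p in limma ranged from 0.000968 to 0.282. With the block it was lost without line #3 (adjusted p = 0.0143 in limma), #7 (adjusted p = 0.0285) or #9 (adjusted p = 0.0182). Sparc was lower in P5 than in resistant cells in 3 of 3 lines, by 2.57 to 3.11 on the log2 scale. It was not called, either against all 6 resistant lines (log2 -3.50, adjusted p = 0.242 in limma) or with the line as a block (log2 -2.65, adjusted p = 0.0284). Its adjusted p in limma ranged from 0.0284 to 0.752 over all alternatives. From P5 to P12 the Sparc level moved by log2 differences of -0.44 in line #3, 0.06 in line #7 and -0.01 in line #9. In line #7, Tnc was higher in P5 (54.1 normalized counts) than in resistant cells (28.2), in contrast to lines #3 and #9.

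Thbs2 and Tgfbi, which were not called, reached high levels after drug withdrawal in some lines. In lines #3, #4 and #6, P12 cells had over 4-fold more of each than both the parental and the resistant cells of the same line, on the scale of normalized count + 1. Thbs2 stood at 9.08, 0 and 1109 normalized counts in parental, resistant and P12 cells of line #3, at 49.0, 282 and 5152 in line #4 and at 23.4, 3.59 and 3734 in line #6. Tgfbi stood at 15.9, 23.0 and 6404 in line #3, at 19.8, 10.4 and 108 in line #4 and at 51.0, 25.1 and 975 in line #6. In line #9, Thbs2 stood at 3369, 1.25 and 67.5, so that P12 cells were above resistant cells there too but below parental cells, and Tgfbi at 465, 204 and 183. P12 cells of lines #7 and #10 had 34.8 and 9.99 normalized counts of Thbs2 and 19.1 and 41.3 of Tgfbi. Lines #3, #4 and #6 and the 4-fold limit were chosen after the values were seen. The share of all tested genes with such a rise is not given here, so whether it is unusual is not known. Neither gene was called between P12 and resistant cells, with a log2 difference of 5.21 for Thbs2 (SE 1.75, adjusted p = 0.0869 in limma) and 3.22 for Tgfbi (SE 1.39, adjusted p = 0.198 in limma).

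Read per kilobase of the longest coding transcript in GENCODE M21, Spp1 was the most abundant member in parental cells, with a median of 64194 normalized counts per kb against 5620 for Fn1, 2541 for Sparc and 1174 for Thbs1. In resistant cells Sparc came first with a median of 87406 per kb, followed by Fn1 with 15344, Tnc with 2140 and Thbs1 with 1674, and Spp1 had 715. In P12 cells the order was Spp1 (53689 per kb), Fn1 (16737), Sparc (12129) and Thbs1 (2775). Differences in level between genes were not tested. Tgfbi, Thbs2 and Postn had the lowest medians of the 9 tested members in parental cells, at 6.58, 3.03 and 0.802 per kb.

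The lines differed in their set of members as much as the states did for several genes. The share of the sum of squares between lines over the 18 parental, resistant and P12 samples was 4.80% for Spp1, 39.5% for Sparc, 39.6% for Postn, 54.0% for Fbn1, 66.3% for Fn1 and 77.6% for Tnc, and the share between states was 86.8% for Spp1, 55.1% for Sparc and 37.6% for Postn. For Thbs1, Thbs2, Fbn1 and Tgfbi 67.0%, 43.2%, 33.1% and 31.1% lay in neither. With 1 library for each line and state, this rest cannot be split into differences between lines in their response and variation between libraries. Parental line #9 had the highest Sparc, Postn, Fn1, Fbn1, Thbs2 and Tgfbi of the 6 parental lines. Line #7 had the lowest Sparc, Tnc and Postn in each state (for parental Postn together with line #10, both at 0) and, after drug withdrawal, the lowest Fbn1.

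For each tested member the 3 genes with the most similar profile, by Pearson correlation of log2 values over the 21 samples (which share 6 lines), are given as a description. Spp1 was followed most closely by Gm42793 (r = 0.989), a transcript annotated inside Spp1 on the same strand whose reads may be those of Spp1, and then by Prkg2 (0.969) and Tnfrsf22 (0.968). Sparc was most like Fstl1 (0.939), itself a relative of Sparc, Yif1b (0.938) and Lemd2 (0.933). Tnc was most like Nov (0.898), a CCN matricellular gene, Hmgn3 (0.890) and Hoxa10 (0.886), and Fn1 was most like Ssc5d (0.923), Nov (0.906) and Mxra7 (0.900). The nearest profiles to Postn were Negr1 (0.911), 4930570G19Rik (0.892) and Gm28356 (0.868), and those to Fbn1 were Zfp469 (0.909), Tmcc2 (0.905) and Hmgn3 (0.900). Thbs2 went with C1qtnf7 (0.884), Hgf (0.873) and Ebf2 (0.866), Tgfbi with Col2a1 (0.904), Pdgfra (0.898) and Ddn (0.889), and Thbs1 with Prob1 (0.811), Ttll5 (0.805) and Cnn2 (0.798). Among the 36 pairs of members, the highest correlations were those of Tnc with Sparc (r = 0.849), with Fbn1 (0.813) and with Postn (0.806) and that of Postn with Sparc (0.805), and the lowest were those of Spp1 with Postn (-0.748) and with Sparc (-0.727).

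A list of 40 other matricellular and fibril-associated glycoproteins gave 36 tested genes, of which 4 were called higher and 0 lower between resistant and parental cells, beside 2.57% and 2.73% of all tested genes, with a median log2 difference of 0.37 against 0.00 for all tested genes. These 4 were Fstl1, a Sparc relative (median 497 normalized counts in parental and 41374 in resistant cells, log2 6.05, adjusted p = 0.00753 in limma), Wisp1, a CCN protein (231 and 5574, log2 5.60, adjusted p = 0.00381 in limma), Fbln7, a short fibulin (1.69 and 200, log2 5.31, adjusted p = 0.00274 in limma), and Tnxb, a tenascin (55.8 and 1241, log2 4.10, adjusted p = 0.00231 in limma). All 4 were higher in 6 of 6 lines, and each call was lost when 1 of several lines was left out: Fstl1 without #3, #4, #6 or #10 (adjusted p 0.0466, 0.0228, 0.0343 and 0.0382 in limma), Wisp1 without #3, #7 or #10 (0.0192, 0.0225 and 0.0220), Fbln7 without #4, #6 or #10 (0.0167, 0.0159 and 0.0181) and Tnxb without #3 or #4 (0.0264 and 0.0189). Over all alternatives the lowest adjusted p in limma was 0.000239, 0.000959, 0.00168 and 0.00178 in the same order, and the highest 0.0466, 0.0225, 0.0181 and 0.0264. With the line as a block, where 4.85% of all tested genes were called higher and 5.60% lower, 5 genes were called higher, Fbln5 among them (log2 5.88, higher in 5 of 6 lines, adjusted p = 0.00271 in limma, range over all alternatives 0.00271 to 0.249), and 2 lower, Smoc1 (log2 -3.18, lower in 5 of 6 lines, adjusted p = 0.00376, range 0.00376 to 0.582) and Ltbp1 (log2 -2.14, lower in 6 of 6 lines, adjusted p = 0.00892, range 0.00892 to 0.109). Between P12 and resistant cells 0 of the 36 were called in limma, where 1.28% of all tested genes were called higher and 0.850% lower. At an unadjusted p below 0.05, 4 were higher and 4 lower, a share near the 19.8% of all tested genes.

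Receptors that bind the members were read from a list of 17 genes, all of them tested. Between resistant and parental cells 1 was called higher and 0 lower, beside 2.57% and 2.73% of all tested genes, with a median log2 difference of 0.40 against 0.00 for all tested genes, and between P12 and resistant cells 0 were called in limma, beside 1.28% and 0.850% of all tested genes. At an unadjusted p below 0.05 in that comparison 2 were higher and 4 lower, where 19.8% of all tested genes passed. The called gene was Itgb8, the beta subunit of an integrin that binds latent TGF-beta, with a median of 14.0 normalized counts in parental, 659 in resistant and 407 in P12 cells (log2 5.07, SE 1.16, adjusted p = 0.00652 in limma). It was higher in 6 of 6 lines. That call was lost without line #3, #4, #6 or #10 (adjusted p 0.0480, 0.0291, 0.0340 and 0.0119 in limma), and its adjusted p ranged from 0.000163 with the block to 0.0480. Cd44, a receptor of osteopontin, had medians of 17216, 8553 and 17902 normalized counts in parental, resistant and P12 cells and was lower in resistant cells of 6 of 6 lines without being called (log2 -1.60, adjusted p = 0.0390 in limma), and Itgav, whose integrins bind Spp1, Fn1 and Postn, had medians of 10634, 17081 and 8878. Between P12 and parental cells 0 receptors were called in limma, beside 0.114% of all tested genes (3 higher and 2 lower at an unadjusted p below 0.05, which 15.3% of all tested genes passed), and with the block 1 was called lower, where 0.523% of all tested genes were called in either direction. This was Itgb6, an integrin subunit that binds fibronectin, with medians of 250 in parental, 39.0 in resistant and 7.11 in P12 cells (log2 -4.27, SE 0.608, adjusted p = 0.00310 with the block and 0.0506 without it in limma), lower in 6 of 6 lines and with an adjusted p of 0.00310 to 0.266 over all alternatives.

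Markers of other cell types were read beside these results because fibroblasts make most members in tissue. The sum of 8 fibroblast genes (Pdgfra, Pdgfrb, Col1a1, Col1a2, Dcn, Lum, Fap and Thy1) had a median of 472 normalized counts in parental cells, 89585 in resistant cells, 31911 in P5 cells and 26187 in P12 cells. It ranged from 113 to 10441 in parental, 1912 to 503995 in resistant, 380 to 75727 in P5 and 247 to 124151 in P12 cells. The lowest sum in resistant cells was that of line #7, the line with the least Sparc, Tnc and Postn. By the mean, Col1a1 was the most abundant of the 8 in resistant cells (55.3% of the sum), which rests on 311103 normalized counts in line #9, and by the median Dcn was. Of the 7 fibroblast genes tested, 1 was called higher between resistant and parental cells and 0 lower, beside 2.57% and 2.73% of all tested genes, and with the block 2 were called higher, beside 4.85%. These were Dcn (log2 11.003, adjusted p = 0.00116 in limma) and, with the block, Col1a1 (log2 5.19, adjusted p = 0.00363, against 0.0634 without it). Median normalized counts in parental and resistant cells were 4.03 and 36729 for Dcn, 331 and 29184 for Col1a1, 6.23 and 67.6 for Pdgfrb, 0 and 39.0 for Col1a2, 2.97 and 14.2 for Fap, 17.4 and 21.3 for Thy1, 0 and 0 for Lum and 43.2 and 52.4 for Pdgfra, the defining marker. The sum of 7 epithelial genes (Epcam, Cdh1, Krt8, Krt18, Krt19, Krt7 and Cldn4) had a median of 246944 in parental, 62431 in resistant, 20191 in P5 and 50681 in P12 cells (ranges 15950 to 283038, 1014 to 209982, 381 to 235130 and 489 to 205788), with Krt19 the most abundant in resistant cells and Epcam listed at 0 in all parental, resistant and P12 samples. That Epcam adds nothing to the sum is unexpected in carcinoma cells with keratins, and its cause is unknown. Line #9 had the lowest epithelial sum in each state. The fibroblast sum was higher in resistant than in parental cells and lower in P12 than in resistant cells in 6 of 6 lines, as were Sparc and Tnc. Col1a1 and Dcn were lower in P12 than in resistant cells in 6 of 6 lines, whereas Pdgfrb (medians 67.6 and 5100) and Pdgfra (52.4 and 232) were higher in 4 of 6, neither of them called. With the block Dcn was called lower in P12 than in resistant cells (log2 -6.26, adjusted p = 0.00964 in limma), beside 2.00% of all tested genes. The epithelial sum was lower in resistant than in parental cells in 6 of 6 lines, and in P12 cells it was lower still in 5 of 6, line #10 being the exception. Of the 6 epithelial genes tested, 1 was called lower between resistant and parental cells, beside 2.73% of all tested genes: Cldn4 (log2 -6.46, adjusted p = 0.000373 in limma). It was also called lower between P12 and parental cells (log2 -5.94, adjusted p = 0.00931 in limma), where 0.114% of all tested genes were called in either direction. With the block 4 were called lower, beside 5.60%, adding Cdh1 (log2 -7.11, adjusted p = 0.000175 in limma), Krt18 (log2 -2.76, adjusted p = 0.00839) and Krt8 (log2 -1.81, adjusted p = 0.00818). Its genes did not all follow it. From resistant to P12 cells Cdh1 was higher in 6 of 6 lines (mean log2 difference 3.85, adjusted p = 0.277 in limma, not called), Krt18 in 5 of 6, Krt8 and Cldn4 in 3 of 6 and Krt19 and Krt7 in 2 of 6. Cldn4 was at or under the level of 3 reads in all 6 resistant and 4 of 6 P12 samples, so its direction here is uncertain. The median log2 difference over the 6 epithelial genes tested was 0.34. The part of either sum in the results for the members was not tested. In such bulk RNA, fewer cells of a type and less RNA per cell cannot be told apart.

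Ptprc, a marker of leukocytes, had between 3.02 and 20.0 normalized counts over all samples, and the sum of 7 leukocyte genes in the table, led by Cd14 in parental cells, had medians of 2655, 607, 1634 and 1490 in parental, resistant, P5 and P12 cells. By the mean, Csf1r led that sum in resistant cells through 2530 normalized counts in line #10 (median 54.0), and by the median Cd68 did (257). In line #10 the sum was higher in resistant cells (2926) than in parental cells (1710). Of the 6 leukocyte genes tested 1, Cd14, was called lower in resistant than in parental cells (log2 -5.46, adjusted p = 0.00155 in limma, 6 of 6 lines) and higher in P12 than in resistant cells (log2 5.10, adjusted p = 0.00505 in limma, 6 of 6 lines), beside 2.73% and 1.28% of all tested genes. With the block Fcgr3 was also called lower in resistant than in parental cells (log2 -3.04, adjusted p = 0.00407 in limma), beside 5.60% of all tested genes. Cd14 was then called higher in P5 than in resistant cells (log2 5.35, adjusted p = 0.00840, against 0.0283 without the block in limma), beside 0.435%. The other leukocyte genes went both ways between resistant and parental cells, none of them called. In resistant cells Csf1r was higher in 6 of 6 lines and Cd68 and Lyz2 in 5 of 6. Ptprc was lower in 6 of 6 and Itgam in 5 of 6. However, Lyz2 was at or under the level of 3 reads in all 6 parental and 3 of 6 resistant samples, so its direction is uncertain. At an unadjusted p below 0.05 in limma, 2 leukocyte genes were higher and 2 lower, where 29.2% of all tested genes passed. Cd14 moved in the directions seen for Spp1. Like Spp1 it was highest in line #7 in each state, and its part in that result was not tested. Pecam1, of endothelium, stayed between 9.65 and 74.0, and Cdh5 was at or under the level of 3 reads in all 6 resistant samples and reached 114 in P5 cells of line #7. The sum of 5 endothelial genes had medians of 55.4, 383, 117 and 91.3 in parental, resistant, P5 and P12 cells. In resistant cells it was led by Tek, the 1 gene called higher of 4 tested (median 1.45 in parental and 274 in resistant cells, highest 2512, log2 5.90, adjusted p = 0.00200 in limma, higher in 6 of 6 lines), beside 2.57% of all tested genes, and Kdr reached 865. Between P12 and resistant cells Tek was called lower (log2 -5.84, adjusted p = 0.00427 in limma), beside 0.850% of all tested genes. With the block only, Pecam1 was called higher (log2 1.39, adjusted p = 0.00464 in limma), beside 2.52% of all tested genes. Cpa1, an acinar enzyme, was 0 in all 6 parental samples and at most 8.79 in resistant cells, and the acinar sum was almost all Cela1. With the block only, 1 of 2 acinar genes tested, Prss2, was called higher in P12 than in resistant cells (log2 2.83, adjusted p = 0.00918 in limma), beside 2.52% of all tested genes.

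The 4 members called with or without the block moved together in resistant cells, Spp1 down and Sparc, Tnc and Postn up. The 250 bases before a RefSeq transcription start of each are therefore shown. RefSeq windows on GRCm38.p6 were found for 7 of the 10 members, and the windows were searched on both strands for TGANTCA (AP-1), AGGAAGT (PEA3/ETS), TGTGGTT (RUNX) and GGAATG (TEAD). These motifs do not overlap one another in the matches found, and 6.75%, 7.69%, 4.40% and 12.6% of 32851 windows of this length hold them. Spp1 (chr5:104434861-104435110, plus strand) held AGGAAGT starting 112 bases before the start and, on the opposite strand, TGTGGTT 129 bases before it. Capitals mark these matches. Spp1, Tnc and Postn have a second window each (chr5:104435942-104436191, chr4:64046937-64047186 and chr3:54359017-54359266), all without a match. The window shown is the one nearest the GENCODE start, a choice made after the sequences were seen. The Sparc window lies inside the gene as annotated in GENCODE (chr11:55394500-55423183, minus strand), so it is not the sequence before that start. Sparc (chr11:55420081-55420330, minus strand), Tnc (chr4:64047016-64047265, minus strand) and Postn (chr3:54360857-54361106, plus strand) held none of the 4 motifs in these windows, and a match or its absence is a description of the letters only.
Spp1: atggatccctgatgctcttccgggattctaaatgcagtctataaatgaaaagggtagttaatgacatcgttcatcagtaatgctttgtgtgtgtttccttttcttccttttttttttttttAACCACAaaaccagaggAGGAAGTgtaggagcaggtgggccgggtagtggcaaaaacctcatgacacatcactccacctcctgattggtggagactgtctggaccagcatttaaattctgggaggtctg
Sparc: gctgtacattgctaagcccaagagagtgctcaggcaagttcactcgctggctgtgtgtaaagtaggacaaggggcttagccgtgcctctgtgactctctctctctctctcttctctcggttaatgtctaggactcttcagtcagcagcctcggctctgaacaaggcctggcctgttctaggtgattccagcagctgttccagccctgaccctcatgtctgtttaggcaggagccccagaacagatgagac
Tnc: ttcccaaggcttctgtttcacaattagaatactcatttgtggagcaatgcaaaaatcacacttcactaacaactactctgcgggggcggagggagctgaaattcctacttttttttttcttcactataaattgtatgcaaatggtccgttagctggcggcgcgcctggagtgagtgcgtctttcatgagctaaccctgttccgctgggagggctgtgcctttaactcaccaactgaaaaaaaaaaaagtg
Postn: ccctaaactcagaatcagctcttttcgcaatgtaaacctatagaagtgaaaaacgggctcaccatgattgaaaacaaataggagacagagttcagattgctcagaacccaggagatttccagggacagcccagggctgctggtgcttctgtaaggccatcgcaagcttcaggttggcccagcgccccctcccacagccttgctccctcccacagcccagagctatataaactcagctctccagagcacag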

How the data were processed

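RNA of 6 murine lines in 4 states was analysed (21 samples, stranded mRNA libraries). The deposited values are signal values: gene counts that the authors made from reads demultiplexed with CASAVA 2.17 or bcl2fastq 2.19, quantified with Salmon 0.12 on mm10 and normalized with DESeq2 1.18 (versions per the submitters' notes). Of the low values of a sample, 60.7% to 75.6% lay within 0.05 of a multiple of 1 read, so whole reads could not be recovered and no count test was run. Sequencer models are not assigned to samples in the sources used here, so batches could not be examined.

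Log2 values took a pseudocount of 1. limma 3.58.1 in R 4.3.3 (trend, Benjamini-Hochberg) was fitted to all 4 states, and the script was tested on simulated data. Line numbers in the labels name the cell line and pair the samples: deviations from the state means correlated at a mean of 0.400 between samples of a line (27 pairs, -0.0601 to 0.806) and at -0.0798 between lines (135 pairs). Python 3.11.15, pandas 2.3.3, numpy 2.4.6 and matplotlib 3.10.9 were used.

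The members and lists were chosen with earlier results of these data known, and the promoter motifs after the sequences were seen. Genes named are the members, the 3 closest profiles of each, called genes of the 2 lists in resistant minus parental and P12 minus resistant (up to 3 each way), the ERK output genes and the markers; Tnxb, Fbln5, Smoc1, Ltbp1, Itgb6, Cd44 and Itgav, and single markers beyond the sums, were named after their values were seen. GENCODE M21 places 1 gene on the same strand inside a member (Gm42793 in Spp1) and 5 on the opposite strand over other members, and whether counting used strand is not given in the sources used here. Alternatives were pseudocounts of 0.5 and 8, no filter, a mean of at least 100, upper quartile rescaling, the line as a block, no trend, an adjusted p below 0.05, only the compared states, each line left out and the P5 samples of lines #7 and #9 left out. The block with each line left out, and all settings for the called list genes, were added after the data were seen.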

Additional observations from a re-analysis of the deposited data

Results flagged for a closer look

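A sample far from the other 5 of its state was found in 4 of 29 groups of 6 tested, where chance gives about 1 in 20. These were Thbs1 in parental line #7 (25599 normalized counts), Thbs2 in parental line #9 (3369), Sparc in resistant line #7 (10522) and Sparcl1 in parental line #10 (0.718, under the level of 3 reads, with the other 5 at 0). Any value above 0 would have stood apart in the Sparcl1 group, so that group cannot be set against the chance rate. Fbn1 in line #9 went against the other 5 lines in both comparisons with resistant cells, with log2 differences of -4.10 for resistant minus parental and 1.93 for P12 minus resistant; that difference between lines was not tested, and both comparisons share the resistant sample.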

How the results depend on the processing

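Of the single-gene values under other settings, 692 kept their direction and side of the threshold, 29 lost and 27 gained a call, and 19 changed sign; the causes were not tested. In the comparison of resistant with parental cells 1023 genes were called, against 2017 with the replicate block and 2190 at an adjusted p below 0.05 (450 to 1237 without 1 line), and 2 members against 4 with the block (1 to 2 without 1 line). Between P12 and resistant cells 412 genes were called, against 872 with the block, 93 with only the 2 compared states and 947 at 0.05 (132 to 467 without 1 line), and 1 member against 3 with the block (1 to 1 without 1 line). Between P12 and parental cells 22 genes were called, against 5 at a mean of at least 100, 101 with the block, 12 with only the 2 states, 14 without P5 of lines #7 and #9 and 116 at 0.05 (4 to 68 without 1 line), and 0 members in all. Between P5 and resistant cells 73 genes were called, against 118 with the block, 14 with only the 2 states, 5 without P5 of lines #7 and #9 and 376 at 0.05 (23 to 48 without 1 line), and 1 member against 0 with only the 2 states and 0 without these P5 samples (0 to 1 without 1 line). The block changed no other call of a member than those given. Upper quartile rescaling moved the median log2 difference of all genes from 0.02 to 0.11 for P12 minus resistant and from 0.03 to 0.13 for P5 minus resistant.

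Log2 differences that changed sign were small or rested on few lines. For resistant minus parental, Thbs1 was 0.35 without line #3, 0.20 without #4 and 0.11 without #7 (-0.54 to 0.35). For P12 minus resistant, Thbs1 was -0.05 without #3 and -0.28 without #4 (-0.28 to 1.12), and Fn1 0.28 without #10 (-0.44 to 0.28). For P12 minus parental, Spp1 was 0.18 without #6 (-0.52 to 0.18), Thbs1 -0.08 without #4, -0.01 without #6 and -0.11 without #9 (-0.11 to 1.11), and Fbn1 -0.45 without #3 (-0.45 to 1.75). For P5 minus resistant, Thbs1 was -0.10 with the block, -0.20 without #3, -0.23 without #4, -0.31 without #9 (-0.31 to 0.91) and -0.22 without P5 of lines #7 and #9, where Tnc was 0.67 and Fbn1 1.62, and Fn1 was 0.0328 with the block. Depth limits values under 3 reads, as in Postn, Thbs2 and Sparcl1, where log2 of normalized count + 1 understates a difference.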
